A study of Mus musculus with 2 samples.

Results

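The 41 DNA replication genes described here encode the proteins that prepare, open, copy and finish the DNA in S phase. They were fixed as a named list of 41 of the 27998 genes in the deposited matrices, and their unique molecular identifiers (UMIs, 1 per captured mRNA molecule) were read in barcodes with more than 500 detected genes. All 41 had UMIs in both tumors. The samples were 2 small cell lung cancer (SCLC) tumors, TKO1 and TKO2, each dissected from 1 mouse of the triple knockout model and each made into 1 10x Chromium library. Both mice are labelled Rb-/- and Trp53-/- and Rbl2-/-, with a Rosa26 membrane-Tomato or membrane-GFP reporter, on a background mixed from C57BL/6, 129/SVJ and 129/SvOla. Cre came from an adenovirus with the CMV promoter, which is not restricted to a cell type and acts on the lung cells it reaches. Cells were taken 7 months after induction, at an age of 8 to 9 months, and were FACS-sorted single cells. No wild-type lung was sequenced, so the deletions have no comparison here. With 1 library per tumor there was no test between tumors. All intervals cover counting error only.

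DNA replication starts with licensing. The origin recognition complex, *Cdc6* and *Cdt1* load the MCM2-7 helicase onto DNA in G1, and the helicase is switched on in S phase by *Cdc45*, the GINS complex and *Mcm10*. Polymerase alpha and primase then lay down primers, polymerases delta and epsilon extend them on the *Pcna* clamp, and RPA covers the single strands. The Rb family proteins, among them the products of *Rb1* and *Rbl2*, hold E2F factors in check, and most of these genes are textbook E2F targets. SCLC is known for loss of *Rb1* and *Trp53* and for rapid proliferation. Genes of mitosis such as *Ube2c*, a ubiquitin-conjugating enzyme of the anaphase-promoting complex, and *Ccnb1*, cyclin B1, peak later in the cycle. They are textbook targets of the MuvB complexes through CHR elements.

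The promoters of the 2 gene groups differed in the letters they held. RefSeq windows of 300 bases on GRCm38.p6, from 250 before to 50 after each gene start, were matched for 34 of the 41 replication genes (39 windows) and 29 of the 32 genes of a mitotic list (31 windows). An E2F word (TTTCCCGC, TTTCGCGC, TTTGCCGC or TTTGGCGC on either strand, where overlapping words count separately) was found in 14 of 39 replication windows (35.9%), 1 of 31 mitotic windows (3.23%) and 2.26% of all 32851 windows. A CHR word (TTTGAA or TTCGAA on either strand) was found in 8 replication windows (20.5%), 23 mitotic windows (74.2%) and 19.2% of all windows. CCAAT, on either strand, was in 64.1% of the replication windows, 77.4% of the mitotic windows and 37.4% of all windows. Among the roles, licensing genes held the E2F word most often, in 7 of 9 matched genes, and the nucleotide supply and single-strand binding genes held it in 0 of 3 each. A match is a description of letters, not of a bound site.

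The promoters of 5 replication genes and of *Ube2c* are shown as examples. The 5 were picked from genes that were higher or lower in cells with mitotic UMIs in at least 1 tumor. *Pcna*, lower in both tumors and without an E2F word in its window, is not shown. *Ccnb1*, whose window held no CHR word, is not shown either. *Mcm3* lies on chromosome 1 at 20820263 to 20820562 (minus strand), *Mcm6* on chromosome 1 at 128359656 to 128359955 (minus), *Cdt1* on chromosome 8 at 122567765 to 122568064 (plus), *Rrm2* on chromosome 12 at 24708004 to 24708303 (plus), *Asf1b* on chromosome 8 at 83955444 to 83955743 (plus) and *Ube2c* on chromosome 2 at 164769679 to 164769978 (plus). Sequences run 5′ to 3′ on the gene's strand, and capitals mark E2F words in the first 3 and CHR words in the last 2. *Rrm2* held neither.
Mcm3: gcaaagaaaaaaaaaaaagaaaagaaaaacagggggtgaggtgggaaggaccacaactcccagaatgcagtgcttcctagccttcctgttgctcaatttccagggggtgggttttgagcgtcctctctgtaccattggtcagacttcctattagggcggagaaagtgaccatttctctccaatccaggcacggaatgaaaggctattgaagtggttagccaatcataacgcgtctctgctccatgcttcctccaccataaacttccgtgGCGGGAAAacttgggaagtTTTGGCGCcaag
Mcm6: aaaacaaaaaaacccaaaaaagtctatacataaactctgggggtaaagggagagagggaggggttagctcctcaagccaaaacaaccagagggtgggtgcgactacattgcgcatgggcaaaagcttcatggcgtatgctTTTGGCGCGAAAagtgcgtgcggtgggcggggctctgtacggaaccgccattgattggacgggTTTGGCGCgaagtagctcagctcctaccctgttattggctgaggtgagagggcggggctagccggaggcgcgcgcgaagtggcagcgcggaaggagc
Cdt1: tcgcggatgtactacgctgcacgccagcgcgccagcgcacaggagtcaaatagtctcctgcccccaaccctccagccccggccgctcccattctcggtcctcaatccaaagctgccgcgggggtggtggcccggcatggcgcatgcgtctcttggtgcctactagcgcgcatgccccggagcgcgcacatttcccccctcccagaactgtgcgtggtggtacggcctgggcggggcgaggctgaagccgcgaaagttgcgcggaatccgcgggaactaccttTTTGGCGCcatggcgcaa
Rrm2: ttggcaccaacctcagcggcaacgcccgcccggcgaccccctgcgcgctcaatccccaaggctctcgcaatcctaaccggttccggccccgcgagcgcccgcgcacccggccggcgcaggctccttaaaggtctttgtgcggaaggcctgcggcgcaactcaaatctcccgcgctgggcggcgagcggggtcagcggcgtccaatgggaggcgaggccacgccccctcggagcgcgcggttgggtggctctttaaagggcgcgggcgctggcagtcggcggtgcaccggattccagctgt
Asf1b: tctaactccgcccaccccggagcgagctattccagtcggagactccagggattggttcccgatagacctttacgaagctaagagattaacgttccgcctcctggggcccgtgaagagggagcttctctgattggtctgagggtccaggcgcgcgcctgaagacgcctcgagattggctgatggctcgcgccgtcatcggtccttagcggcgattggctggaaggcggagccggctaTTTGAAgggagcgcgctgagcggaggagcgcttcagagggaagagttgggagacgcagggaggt
Ube2c: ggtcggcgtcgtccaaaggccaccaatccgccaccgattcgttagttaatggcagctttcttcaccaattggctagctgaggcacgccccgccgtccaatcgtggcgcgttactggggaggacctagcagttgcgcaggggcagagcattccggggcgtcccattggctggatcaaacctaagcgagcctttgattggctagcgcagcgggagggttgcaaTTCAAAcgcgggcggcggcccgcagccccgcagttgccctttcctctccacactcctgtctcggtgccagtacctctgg

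TKO1 had 4514 barcodes with 5285038 UMIs and TKO2 had 3816 barcodes with 8291430 UMIs. More than 500 detected genes and less than 10% mitochondrial UMIs left 3193 and 3568 cells, with a median of 1223 and 1960 UMIs. Of these, 2988 and 3376 cells were neuroendocrine-like (markers of SCLC at least 2-fold over macrophage-like cells), 97 and 126 were macrophage-like, 108 cells of TKO1 were club-like, and 66 cells of TKO2 carried both club and neuroendocrine markers and stayed unnamed. The libraries shared 22 barcodes, of which 12 and 21 were retained. Mitochondria-encoded and ribosomal protein genes took 11.3% of the neuroendocrine-like UMIs in TKO1 and 24.1% in TKO2, and with both left out of the totals the log2 ratio of TKO1 to TKO2 for the 41 genes was -0.72, against -0.50 with them. The median gene stood 0.37 higher in TKO1 on the log2 scale of CPM (counts scaled to 1000000 UMIs per tumor). Ratios between tumors are therefore given relative to that median, and in such sums fewer expressing cells and less RNA per cell cannot be told apart.

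Summed over the neuroendocrine-like cells, the 41 genes took a smaller part of the mRNA in TKO1 than in TKO2. They gave 3150 CPM (95% Poisson interval 3097 to 3204, 13302 UMIs) in TKO1 and 4446 CPM (4399 to 4493, 34452 UMIs) in TKO2. The log2 ratio of TKO1 to TKO2 was -0.50 (exact interval -0.53 to -0.47) in CPM and -0.86 relative to all genes. Single genes had a median relative log2 ratio of -0.90 and ranged from -2.80 for *Mcm10* to 0.74 for *Pola1*. Of the 41, 17 were at least 2-fold higher in TKO2, where 18.7% of all 12910 genes with at least 10 UMIs were, and 0 were at least 2-fold higher in TKO1, where 23.2% of all genes were. Without the subtraction of the median the counts were 9 and 1, where 12.3% and 31.1% of all genes were. In all, 35 genes lay below 0 and 6 above, and 34 and 3 of them had an interval that did not reach 0. The share of all genes with such an interval was not counted. The plot of the 41 genes by tumor shows the shift in 8 of 9 roles.

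**Figure D1:**
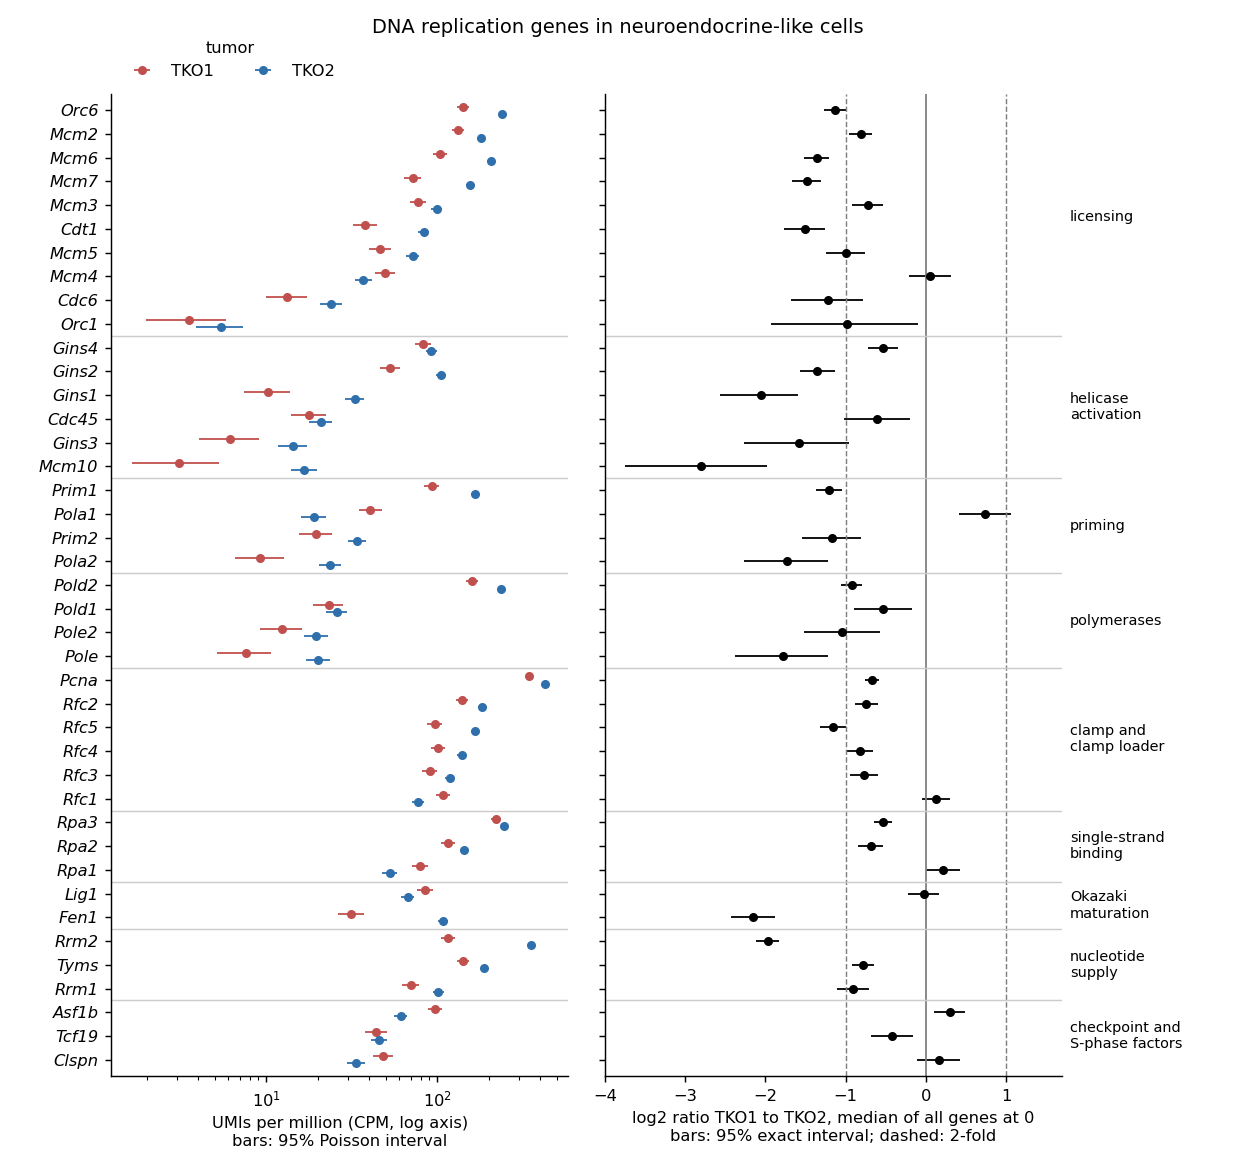
Each row is 1 of the 41 DNA replication genes, ordered by role. The left panel gives its CPM in the neuroendocrine-like cells of TKO1 (red) and TKO2 (blue) on a log axis with 95% Poisson intervals, and the right panel gives the log2 ratio of TKO1 to TKO2 relative to the median of all genes with 95% exact intervals, with dashed lines at 2-fold. Most genes lie left of 0, and *Mcm10*, at -2.80, lies farthest left.

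The 10 licensing genes summed to 678 CPM (654 to 703) in TKO1 and 1104 CPM (1081 to 1128) in TKO2, a relative log2 ratio of -1.07. *Orc6*, a subunit of the origin recognition complex, stood at 142 CPM (131 to 154) and 241 CPM (229.9 to 252), 2.19-fold higher in TKO2 relative to all genes. *Mcm2*, a helicase subunit, was at 133 CPM (122 to 144) and 180.2 CPM (171 to 189.9), 1.75-fold. The helicase subunits were not shifted alike. *Mcm7* had 72.0 CPM (64.1 to 80.6) in TKO1 and 156 CPM (148 to 165) in TKO2, 2.80-fold higher. *Mcm6* had 103 CPM (94.0 to 114) and 206 CPM (196 to 216), 2.57-fold higher. *Mcm4* was the exception, with 49.7 CPM (43.2 to 56.9) in TKO1 and 37.0 CPM (32.9 to 41.6) in TKO2, a relative log2 ratio of 0.06 (-0.21 to 0.32). The loaders were also higher in TKO2. *Cdt1* was at 37.9 CPM (32.2 to 44.2) and 83.4 CPM (77.1 to 90.1), 2.84-fold. It overlaps another gene model of the list, *Gm20388*, on the same strand, so its UMIs may be incomplete. *Cdc6* was at 13.3 CPM (10.0 to 17.2) and 24.0 CPM (20.7 to 27.7), 2.33-fold. *Mcm5* at 1.99-fold and *Orc1* at 1.97-fold, the latter on 15 and 42 UMIs, lay just under the 2-fold line, and *Pole2* at 2.05-fold just over it.

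Helicase activation held the gene with the largest ratio between the tumors, *Mcm10*. The 6 genes summed to 173 CPM in TKO1 and 283 CPM in TKO2, a relative log2 ratio of -1.08. *Mcm10*, which helps to start the active helicase, had 13 UMIs in TKO1 (3.08 CPM, 1.64 to 5.26) and 129 in TKO2 (16.6 CPM, 13.9 to 19.8), 6.97-fold higher in TKO2. The GINS subunits were spread widely. *Gins1* was at 10.2 CPM (7.37 to 13.7) and 32.9 CPM (29.0 to 37.2), 4.17-fold. *Gins3* was at 6.16 CPM (4.02 to 9.02) and 14.3 CPM (11.8 to 17.3), 3.0-fold. *Gins2* was at 53.3 CPM (46.5 to 60.7) and 105 CPM (98.2 to 113), 2.55-fold. *Gins4*, the remaining subunit of the same 4-protein complex, differed by 1.45-fold, with 82.4 CPM (74.0 to 91.5) and 92.5 CPM (85.9 to 99.6). The 4 subunits did not keep 1 ratio between the tumors.

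The 4 genes of polymerase alpha and primase did not shift as 1 group. *Prim1*, the catalytic primase subunit, was at 92.8 CPM (83.9 to 102) in TKO1 and 166 CPM (157 to 176) in TKO2, 2.31-fold higher in TKO2. *Prim2* was at 19.7 CPM (15.7 to 24.4) and 34.2 CPM (30.2 to 38.6), 2.24-fold, and *Pola2* at 9.24 CPM (6.57 to 12.6) and 23.7 CPM (20.4 to 27.4), 3.32-fold. *Pola1*, the catalytic subunit of polymerase alpha, went the other way. It had 40.7 CPM (34.9 to 47.3) in TKO1 and 19.0 CPM (16.0 to 22.3) in TKO2, a relative log2 ratio of 0.74 (0.41 to 1.06), and it was the 1 gene at least 2-fold higher in TKO1 when the median was not subtracted. Among the elongating polymerases, *Pold2*, the accessory subunit of polymerase delta, was at 159.8 CPM (148 to 172) and 235 CPM (225 to 246), 1.90-fold higher in TKO2. *Pold1*, its catalytic subunit, was at 23.2 CPM (18.8 to 28.3) and 25.9 CPM (22.5 to 29.8), 1.44-fold. The polymerase epsilon genes differed more. *Pole*, the catalytic subunit, was at 7.58 CPM (5.18 to 10.7) and 20.1 CPM (17.1 to 23.6), 3.43-fold, and *Pole2* at 12.3 CPM (9.20 to 16.1) and 19.6 CPM (16.6 to 23.0), 2.05-fold.

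The clamp, its loader and RPA were closer between the tumors. *Pcna*, the sliding clamp, had 346 CPM (329 to 365) in TKO1 and 428 CPM (413 to 442) in TKO2, 1.59-fold higher relative to all genes. A processed copy, *Pcna-ps2*, is in the gene list and may take or remove some of its reads. Without *Pcna* the other 40 genes had a relative log2 ratio of -0.89. The loader subunit *Rfc2* was at 141 CPM (129.6 to 152) and 182 CPM (173 to 192), 1.67-fold, and *Rfc5* at 96.9 CPM (87.7 to 107) and 167 CPM (158 to 176), 2.22-fold. The large subunit *Rfc1* stood at 109 CPM (99.0 to 119) in TKO1 and 77.0 CPM (71.0 to 83.5) in TKO2, a relative log2 ratio of 0.13 (-0.05 to 0.31). The 3 RPA genes summed to 416 CPM and 445 CPM, a relative log2 ratio of -0.46. *Rpa3* was at 221 CPM (207 to 235) and 248 CPM (237 to 259), and *Rpa2* at 116 CPM (106 to 127) and 144 CPM (136 to 153). *Rpa1*, the large RPA subunit, leaned to TKO1 with 79.1 CPM (70.8 to 88.0) and 52.7 CPM (47.7 to 58.0), a relative log2 ratio of 0.22 (0.01 to 0.43).

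The 2 genes of Okazaki fragment maturation did not move together. *Fen1*, the flap endonuclease, had 31.5 CPM (26.4 to 37.3) in TKO1 and 108 CPM (101 to 116) in TKO2, 4.43-fold higher. *Lig1*, the ligase that seals the nick after it, had 85.0 CPM (76.4 to 94.3) and 67.1 CPM (61.5 to 73.1), a relative log2 ratio of -0.03 (-0.22 to 0.17) that was 0.34 without subtraction of the median. Nucleotide supply had the lowest ratio of the 9 roles, -1.34, with sums of 328 CPM (311 to 345) and 643 CPM (625 to 661). Most of that came from *Rrm2*, the cell cycle-regulated subunit of ribonucleotide reductase, which was at 115.8 CPM (105.8 to 127) in TKO1 and 352 CPM (339 to 366) in TKO2, 3.92-fold higher. *Tyms*, thymidylate synthase, was at 142 CPM (131 to 154) and 189 CPM (179.5 to 199), 1.72-fold, and *Rrm1*, the large reductase subunit, at 70.1 CPM and 102 CPM, 1.87-fold. The checkpoint and S-phase factor group was the 1 role without a shift, at 189 CPM (177 to 203) and 140.4 CPM (132 to 149), a relative log2 ratio of 0.07 (-0.07 to 0.20). *Asf1b*, a histone chaperone, had 97.1 CPM (87.9 to 107) and 61.3 CPM (55.9 to 67.1), and *Tcf19*, a factor induced at S phase entry, 44.0 CPM (37.9 to 50.8) and 45.6 CPM (40.9 to 50.6). *Clspn*, claspin, the checkpoint adaptor at the fork, had 48.3 CPM (41.9 to 55.4) and 33.6 CPM (29.6 to 37.9).

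A wider list of 42 other replication genes had the same lean. It held 17 genes at least 2-fold higher in TKO2 (18.7% of all genes were) and 1 at least 2-fold higher in TKO1 (23.2% of all genes). Its median relative log2 ratio was -0.83. *Dut*, the dUTPase, was at 453 CPM and 1005 CPM (relative log2 ratio -1.52), *Dctpp1*, a dCTP pyrophosphatase, at 275 CPM and 851 CPM (-2.0), *Tipin*, a fork protection factor, at 324 CPM and 468 CPM (-0.90), *Pole4* at 181 CPM and 246 CPM (-0.81) and *Nasp*, a histone chaperone, at 147 CPM and 239 CPM (-1.07). Among the others past 2-fold were *Hells*, *Rnaseh2c*, *Pole3*, *Topbp1*, *Dbf4*, *Mcmbp*, *Cdca7*, *Cdc7*, *Timeless*, *Dscc1*, *Orc5*, *Ticrr* and *Recql4*, from -1.14 for *Hells* to -2.71 for *Cdca7*. Above 0 were 7 genes. *Pold4*, the small polymerase delta subunit, was the 1 of them past 2-fold, at 44.0 CPM and 11.2 CPM (1.61), and *Donson*, a replication fork protein, followed at 0.89 (0.58 to 1.21). The 32 mitotic genes had a sum of 2580 CPM and 4423 CPM. Of them, 17 of 32 were at least 2-fold higher in TKO2 (18.7% of all genes were), and 32 of 32 lay below 0, the median of all genes. *Ube2c* was at 229 CPM (214 to 243) and 605 CPM (588 to 622) and *Ccnb1* at 107 CPM (97.2 to 117) and 262 CPM (251 to 274), 3.41-fold and 3.16-fold higher in TKO2 relative to all genes.

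Most tumor cells held replication UMIs. To put cells of unequal depth on 1 footing, each cell was thinned to 1000 UMIs, which left 2148 neuroendocrine-like cells of TKO1 and 3016 of TKO2 and left out 840 and 360 shallower ones. At least 1 UMI of the 41 genes was found in 86.1% (Clopper-Pearson 84.5 to 87.5%) of TKO1 cells and 95.5% (94.7 to 96.2%) of TKO2 cells, against 88.3% and 98.2% unthinned. Macrophage-like cells gave 63.0% (51.5 to 73.4%) and 63.2% (53.8 to 72.0%), at median depths of 1423 and 1739 UMIs against 1393 and 2106.5 in the tumor cells, and these shares are the background against which a single UMI is read. The replication level of the macrophage-like class of TKO2 depended on the clustering, as given below. Higher counts separated tumor from macrophage-like cells more. At least 3 UMIs were in 47.5% (45.4 to 49.7%) and 69.9% (68.2 to 71.5%) of tumor cells and in 16.0% (8.83 to 25.9%) and 24.8% (17.3 to 33.6%) of macrophage-like cells. Club-like cells of TKO1 had 70.2% with any and 29.8% (20.8 to 40.1%) with at least 3. The unnamed cells of TKO2 had 81.3% and 47.9% (33.3 to 62.8%). At least 10 UMIs were in 3.82% (3.05 to 4.72%) and 7.76% (6.83 to 8.77%) of tumor cells. Macrophage-like cells had 0% (0 to 4.45%) and 2.56% (0.53 to 7.31%), and club-like cells of TKO1 2.13% (0.26 to 7.48%), so these intervals overlap those of the tumor cells.

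The spread among tumor cells was wider than counting error but narrower than that of the mitotic genes. Cells held a mean of 3.12 replication UMIs (3.04 to 3.19) in TKO1 and 4.48 (4.40 to 4.55) in TKO2, with a maximum of 18 and 24. The Fano factor, variance over mean, was 2.59 and 2.25 for the replication genes and 15.2 and 7.72 for the mitotic list. Cells with none made up 13.9% and 4.54%, where counting error alone around those means would give 4.43% and 1.14%. The top 10% of cells held 30.3% and 25.1% of all replication UMIs.

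**Figure D2:**
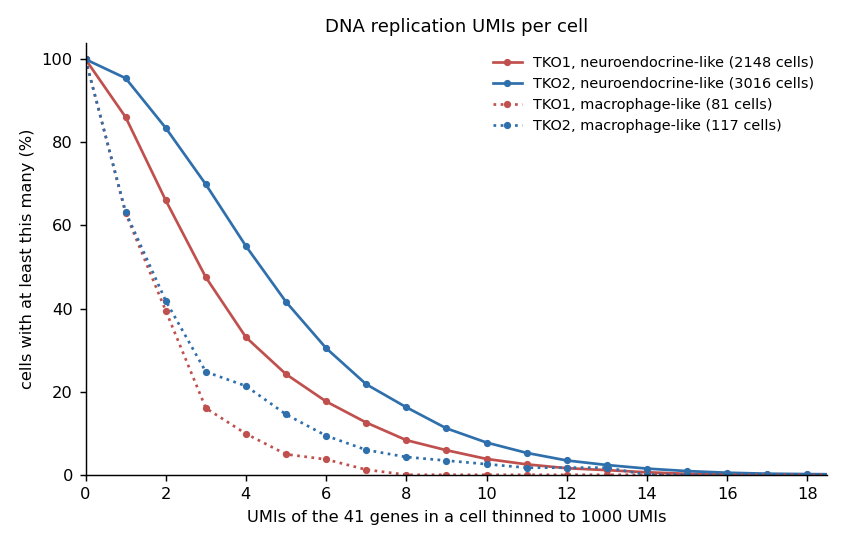
The share of cells (%) that hold at least a given number of UMIs of the 41 DNA replication genes, after each cell was thinned to 1000 UMIs, for neuroendocrine-like (solid) and macrophage-like (dotted) cells of TKO1 (red) and TKO2 (blue). At 3 UMIs the tumor cells stand at 47.5% and 69.9% and the macrophage-like cells at 16.0% and 24.8%.

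Each gene by itself was seen in few cells. In thinned tumor cells the share with a UMI ran from 0.23% (*Mcm10*) to 25.3% (*Pcna*) in TKO1, with a median of 5.77%, and from 0.43% (*Orc1*) to 30.8% (*Pcna*) in TKO2, with a median of 7.53%. The share was larger in TKO2 for 34 of 41 genes. These shares were compared without subtraction of the median, and how many of all genes were larger in TKO2 was not counted. *Rrm2* was in 7.68% of TKO1 cells and 21.9% of TKO2 cells, against 2.47% and 11.1% of macrophage-like cells. *Rfc5* was in 8.52% and 14.9%, against 1.23% and 3.42%. The tumor share was larger than the macrophage-like share for 38 genes in TKO1 and 40 in TKO2. It lay above the interval of the macrophage-like share for 9 genes in TKO1 and 18 in TKO2. How many of all genes did so was not counted. For the others the 81 and 117 macrophage-like cells could not set them apart. *Gins4* (7.45% against 9.88%), *Gins1* (0.84% against 2.47%) and *Pola2* (0.79% against 1.23%) in TKO1 were no higher than that background. In TKO2 the same held for *Asf1b* (5.21% against 5.98%).

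Summed over cells rather than thinned, macrophage-like cells had 1555 CPM (1356 to 1774) of the 41 genes in TKO1 and 2171 CPM in TKO2, so the neuroendocrine-like cells stood 2.03-fold and 2.05-fold higher. Club-like cells of TKO1 had 1910 CPM (1724 to 2110), and the unnamed cells of TKO2 had 2981 CPM. When cells with more than 200 detected genes were clustered, macrophage-like cells had 1411 CPM in TKO1 and 1195 CPM (1048 to 1358, 134 cells) in TKO2. The TKO2 background and its fold therefore depended on the clustering. In that setting a separate cluster of 39 TKO2 cells with T or natural killer cell markers had 3688 CPM. This cluster also held 12 neuroendocrine markers at least 2-fold over macrophage-like cells, so its cells may be mixed. In TKO1 a cluster of 45 cells with T or natural killer cell markers had 1002 CPM and held 1 neuroendocrine marker. A TKO1 cluster of 62 cells with B cell markers had 1278 CPM and held 8. Whether cells of the TKO2 cluster lie within the main macrophage-like class was not tested. In the main clustering, drawn without the genes of the replication and mitotic lists, the level within the tumor cells differed by cluster. Cell cycle genes outside those lists could take part, and *Ccne2*, *Spc25* and *Mki67* were among the genes leading clusters. The clusters were therefore not drawn independently of the cell cycle. In TKO1 it ran from 1560 CPM (1473 to 1650) in cluster 1, led by *Fam183b*, *Cfap126* and the stress genes *Ddit3* and *Trib3*, to 6187 CPM (5970 to 6411) in cluster 4, led by *Crabp1*, *2810417H13Rik* (the PCNA-associated factor) and *Clspn*, a member that took no part in the clustering. These clusters were 3.97-fold apart. Cluster 1 (618 cells) was led in part by the ciliated cell markers *Cfap126* and *Dynlrb2*. It also held 15 neuroendocrine markers at least 2-fold over macrophage-like cells and was counted with the tumor cells. Its level was close to the 1555 CPM of the macrophage-like cells of TKO1. In TKO2 the range was from 3502 CPM in cluster 5 to 5559 CPM in cluster 3, 1.59-fold.

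Replication and mitotic UMIs peaked in different clusters of TKO1. Cluster 4 (325 cells) had 1220 CPM of the mitotic list, while cluster 6 (239 cells), led by *Ube2c* and *Birc5*, had 17289 CPM of it and 4131 CPM (3950 to 4318) of the replication genes. The roles were split between them. Licensing genes had 1216 CPM in cluster 4 and 497 CPM in cluster 6, close to the 445 CPM of macrophage-like cells, while nucleotide supply had 722 CPM and 1032 CPM. In TKO2 the mitotic list ran from 875 CPM to 8939 CPM. The clusters with the most mitotic UMIs, cluster 2 and cluster 4, had 4645 CPM and 5064 CPM of the replication genes, between the extremes.

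**Figure D3:**
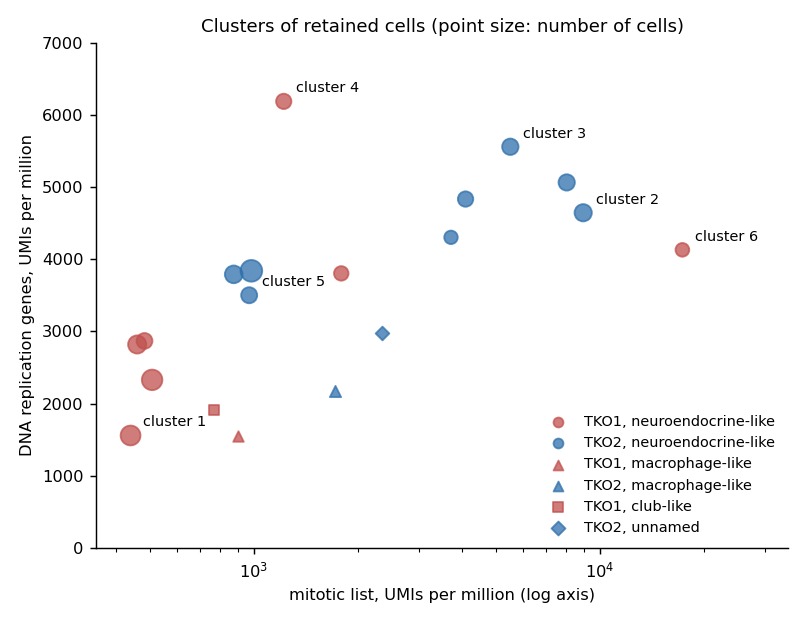
Each point is 1 cluster of retained cells, with CPM of the mitotic list on a log axis against CPM of the 41 DNA replication genes. Color gives the tumor, shape the cell class and size the number of cells. In TKO1 cluster 4 (6187 CPM replication, 1220 CPM mitotic) and cluster 6 (4131 and 17289 CPM) hold the 2 maxima, while the TKO2 tumor clusters lie between 3502 and 5559 CPM of replication UMIs.

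In single cells the replication genes as a sum were higher in TKO1 cells that held mitotic UMIs, and in TKO2 the direction depended on how such cells were marked. Among thinned tumor cells, a UMI of *Ube2c* or *Ccnb1* was in 238 of 2148 cells of TKO1 (11.1%) and 1009 of 3016 of TKO2 (33.5%), against 3.70% and 16.2% of macrophage-like cells. TKO1 cells with such a UMI held 3.63 replication UMIs (3.40 to 3.88) and those without held 3.05 (2.97 to 3.13), a ratio of 1.19 (1.11 to 1.28). In TKO2 the values were 4.40 and 4.52, a ratio of 0.97 (0.94 to 1.01). The higher sum in TKO1 was not shared by most genes. The median log2 ratio of the 38 genes with at least 10 UMIs was -0.13 there, against 0.005 over all genes. *Rrm2* and *Asf1b* gave 107 and 78 of the 865 UMIs in the TKO1 cells with such a UMI. They gave 129 and 114 of the 5828 UMIs in the cells without. The other 30 mitotic genes had ratios of 16.4 and 4.45 between the same cells. Cells with a UMI of either gene were deeper before thinning, with medians of 1906.5 against 1361 UMIs in TKO1 and 2408 against 2012 in TKO2. Among cells between the depth quartiles the ratios were 1.15 and 1.04. With at least 2 UMIs of the mitotic list as the mark, they were 1.44 (1.36 to 1.52) and 1.18 (1.14 to 1.22), so that the TKO2 cells with mitotic UMIs were then the higher ones. Cells without a UMI of *Ube2c* or *Ccnb1* held more replication UMIs in TKO2 (4.52) than in TKO1 (3.05).

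Within that total, 3 roles had a ratio whose interval left out 1 in both tumors, each in the same direction. MCM2-7 UMIs were lower in cells with *Ube2c* or *Ccnb1*, at 0.70 of the level in cells without (0.55 to 0.88) in TKO1 and 0.67 (0.61 to 0.73) in TKO2. Summed, the 10 licensing genes stood at 0.78 (0.64 to 0.94) and 0.74 (0.69 to 0.80). MCM2-7 gave most of these UMIs, 81 of 126 in cells with and 924 of 1296 in cells without in TKO1. In TKO2 they gave 590 of 934 and 1757 of 2508. For *Orc1*, *Orc6* and *Cdc6* the interval of the log2 ratio held 0 in both tumors. *Orc6* leaned up in TKO1 (0.41, -0.09 to 0.88). Nucleotide supply was higher, at 2.94 (2.46 to 3.50) and 1.48 (1.35 to 1.62), and so were the checkpoint and S-phase factors, at 2.97 (2.35 to 3.72) and 1.33 (1.09 to 1.63). In the TKO1 cells with such a UMI, *Asf1b* gave 78 of the 105 UMIs of the checkpoint and S-phase factors. For *Clspn* and *Tcf19* the interval of the log2 ratio held 0 in both tumors. The other roles lay between 0.75 and 1.17 in both tumors, so by size alone licensing in TKO1 was not apart from them. The lowest was Okazaki fragment maturation in TKO1, at 0.75 (0.45 to 1.17).

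Single genes carried these differences. In TKO1, 6 of the 38 genes with at least 10 UMIs were at least 2-fold higher in cells with *Ube2c* or *Ccnb1* (11.1% of all genes were) and 2 were at least 2-fold lower (9.05% of all genes). Of the 6, *Cdc45*, *Gins1* and *Pole* rested on 6, 4 and 4 UMIs in the cells with, and their intervals held 0. In TKO2, 2 of 41 were higher (3.61% of all genes), *Mcm10* at a log2 ratio of 1.49 and *Gins1* at 1.09, and 0 of 41 were lower (6.83% of all genes). The counts of higher genes thus lay near the share over all genes in both tumors. *Rrm2* gave 449.6 UMIs per 1000 cells with and 67.5 without in TKO1, a log2 ratio of 2.73 (2.35 to 3.12), and 456 and 277 in TKO2, 0.72 (0.54 to 0.90). In these units, without subtraction of the median, its level in the cells with a mitotic UMI was close in the tumors. The level in the cells without was not. In the tumor cluster with the fewest mitotic UMIs, *Ube2c* was at 19.4 CPM in TKO1 and 187 CPM in TKO2. That TKO2 value is for cluster 1, with 875 CPM of the mitotic list. In TKO2 clusters 5 and 0, with 970 and 984 CPM of the list, *Ube2c* was lower, at 107 and 79.3 CPM. Whether the mark selects like cells in the tumors was not tested. *Asf1b* gave 328 and 59.7 in TKO1, 2.46 (2.02 to 2.89), and 84.2 and 48.3 in TKO2, 0.80 (0.36 to 1.24). *Rfc5* (1.23 and 0.37) and *Tyms* (0.73 and 0.34) also had intervals above 0 in both tumors.

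*Pcna* and the helicase subunits *Mcm3* and *Mcm6* were lower in cells with mitotic UMIs in both tumors. *Pcna* gave 214 UMIs per 1000 cells with and 369 without in TKO1, a log2 ratio of -0.78 (-1.22 to -0.37), and 369 and 452 in TKO2, -0.30 (-0.47 to -0.12). *Mcm6* gave 63.0 and 107 in TKO1, -0.76 (-1.62 to -0.01), and 148 and 254 in TKO2, -0.78 (-1.05 to -0.51). *Mcm3* gave 46.2 and 89.0, -0.95 (-1.97 to -0.07), and 79.3 and 110.6, -0.48 (-0.87 to -0.11). Other intervals were below 0 in 1 tumor only. They were those of *Mcm2* (-0.82, -1.12 to -0.52), *Mcm4*, *Mcm7* and *Gins2* (-0.47, -0.84 to -0.11) in TKO2, and those of *Lig1* (-1.19, -2.35 to -0.23), *Rfc2* (-0.68, -1.38 to -0.05) and *Cdt1* in TKO1. The interval of *Mcm5* held 0 in both. *Cdt1*, whose protein is destroyed in S phase, had 2 UMIs in the 238 cells and 78 in the 1910 others of TKO1 (-2.28, -5.35 to -0.38), but 80.3 and 83.2 per 1000 cells in TKO2 (-0.05, -0.45 to 0.34). *Cdc6* had 0 UMIs in the 238 cells and 27 in the others of TKO1, too few to set them apart (the interval of the log2 ratio reached 0.23), and 31.7 and 27.9 per 1000 cells in TKO2 (0.18, -0.49 to 0.84). No gene had intervals on opposite sides of 0 in the tumors. In TKO1 only 6 of the 38 genes had an interval above 0 and 6 below, so most genes could not have done so. How many of all genes had such intervals was not counted.

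**Figure D4:**
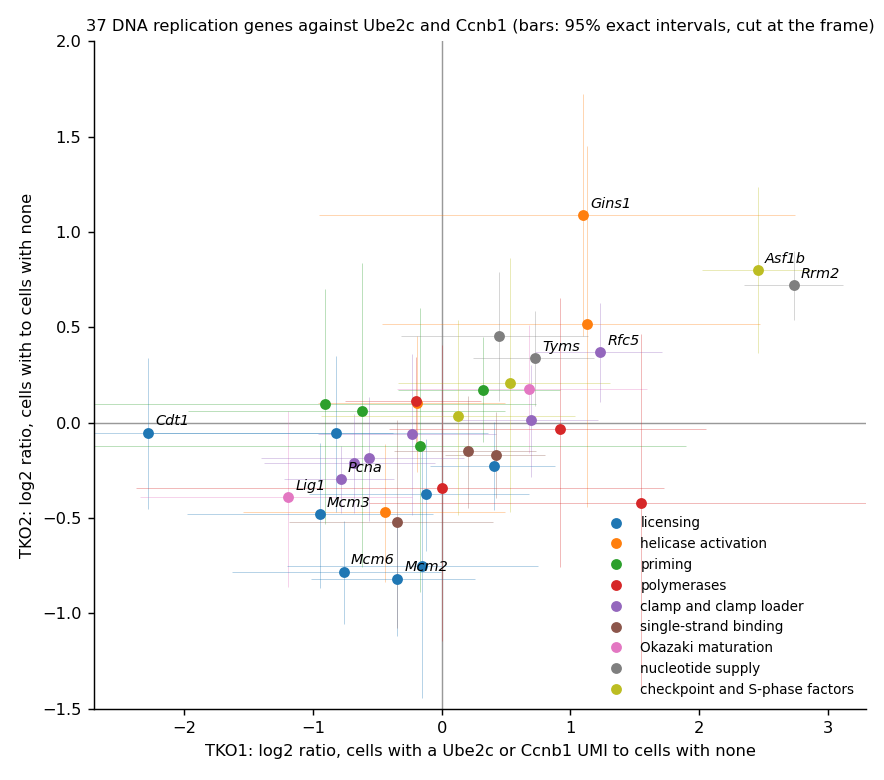
Each point is 1 of the 37 DNA replication genes with at least 10 UMIs in both tumors and a UMI in both kinds of cell. The axes give the log2 ratio of its UMIs per cell in cells with a *Ube2c* or *Ccnb1* UMI to cells with none, TKO1 across and TKO2 upward, with 95% exact intervals, and color gives the role. *Rrm2* (2.73 and 0.72) and *Asf1b* (2.46 and 0.80) lie far to the upper right, and *Mcm3*, *Mcm6* and *Pcna* lie to the lower left.

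A split of the genes by promoter word was made after the values were seen and is a description only. Of the 14 genes with an E2F word, 7 are licensing genes, so this split and the one by role overlap. *Mcm3* and *Mcm6* hold the E2F words shown in capitals above, and *Pcna*, lower like them, holds none in its window. Summed, the 14 genes stood at 0.68 (0.55 to 0.83) in TKO1 and 0.80 (0.74 to 0.87) in TKO2 in cells with against without *Ube2c* or *Ccnb1*, and the 20 matched genes without one at 1.44 (1.33 to 1.56) and 1.05 (1.00 to 1.09). With *Rrm2* and *Asf1b* left out, the latter values were 1.12 (1.02 to 1.23) and 0.97 (0.93 to 1.02). Between the tumors both sets leaned to TKO2, with median relative log2 ratios of -0.99 and -0.82.

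Grouped by the number of replication UMIs they held, cells differed less in mitotic UMIs than in cyclin E. In TKO1 the share with *Ube2c* or *Ccnb1* was 10.0% (6.87 to 14.0%) without replication UMIs, 8.33% (6.54 to 10.4%) with 1 or 2, 15.8% (11.9 to 20.5%) with 6 to 9 and 14.6% (7.80 to 24.2%) with 10 or more. Mean mitotic UMIs in these 4 groups of TKO1 were 2.03, 1.59, 3.42 and 3.11. In the same groups of TKO2 they were 4.39, 4.52, 3.39 and 3.94, so they did not rise there. Median depth before thinning was 1314 UMIs without replication UMIs and 1672.5 with 10 or more in TKO1, and 1875 and 2135.5 in TKO2. In TKO2 the share was 34.3% (26.4 to 42.9%) without and 32.1% (26.1 to 38.4%) with 10 or more, while that of *Ube2c* alone was 30.1% (26.9 to 33.5%) with 1 or 2 and 22.5% (19.4 to 25.8%) with 6 to 9. *Ccne1* and *Ccne2*, which encode the cyclins E that drive entry into S phase, are in none of the lists. *Ccne2* ranked 5 of 2498 genes by correlation with the same replication sum in these cells, so its rise restates that correlation. The share with a UMI of either went from 7.69% (4.94 to 11.3%) to 62.2% (50.8 to 72.7%) in TKO1 and from 5.11% (2.08 to 10.2%) to 38.0% (31.8 to 44.6%) in TKO2.

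**Figure D5:**
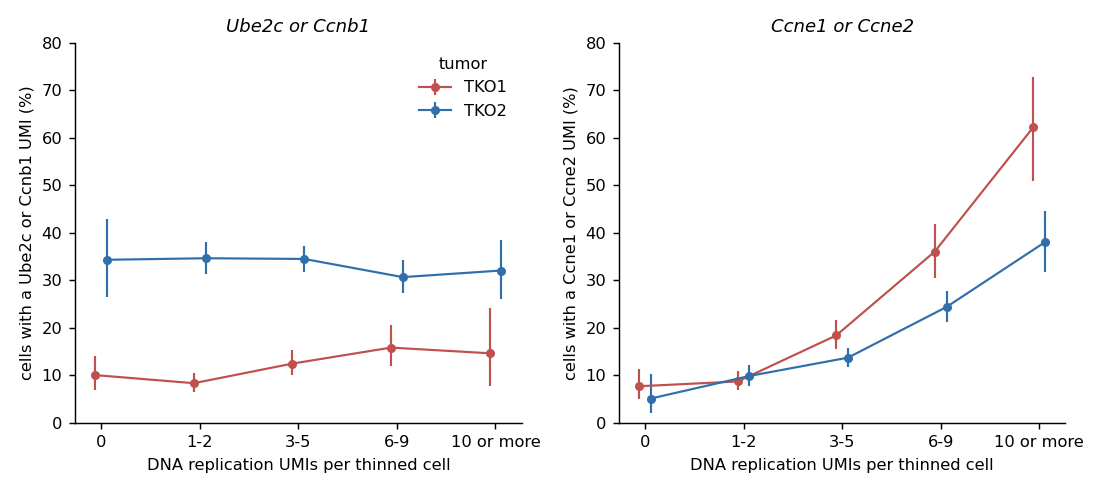
The share of thinned neuroendocrine-like cells (%) with a UMI of *Ube2c* or *Ccnb1* (left) and of *Ccne1* or *Ccne2* (right), by the number of DNA replication UMIs in the cell, for TKO1 (red) and TKO2 (blue) with 95% Clopper-Pearson intervals. The left curves lie between 8.33 and 15.8% in TKO1 and between 30.7 and 34.6% in TKO2, and the right curves climb to 62.2% and 38.0% in cells with 10 or more.

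Correlations across cells, given as descriptions, had the same order. Over the 2148 and 3016 thinned cells, which share a library and a fixed depth within a tumor, the summed replication genes correlated with the 42 other replication genes at r = 0.47 and 0.37 and with the mitotic list at r = 0.09 and -0.05. The rank correlation (Spearman) with the mitotic list was 0.16 and 0.05, so the sign in TKO2 depended on the measure. Alternate members of the list, split into 2 sets, correlated at 0.36 and 0.33. Pairs of single genes had a median r of 0.02 in both tumors, and the highest pairs were *Rrm2* with *Asf1b* (0.21) in TKO1 and *Rrm2* with *Tyms* (0.17) in TKO2. Nucleotide supply correlated with the mitotic list at 0.24 and 0.10 and licensing at -0.06 and -0.16. Of single genes, *Pcna* (0.29 and 0.25) and *Rrm2* (0.25 and 0.29) had the highest mean r over the tumors with the other replication genes, and in TKO1 alone *Clspn* and *Tyms* (both 0.25) stood level with *Rrm2*.

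Of the 2498 genes that averaged 0.05 UMIs or more in the thinned cells of both tumors, the 10 most like the summed replication genes were named by mean r. *2810417H13Rik* was first (0.36 in TKO1 and 0.31 in TKO2). The tubulin genes *Tubb5* (0.36 and 0.23) and *Tuba1b* (0.33 and 0.24), the chromatin protein gene *Dek* (0.31 and 0.24) and *Ccne2* (0.33 and 0.21) followed. *Stmn1*, which encodes the microtubule regulator stathmin (0.36 and 0.17), *Ptma*, prothymosin alpha (0.40 and 0.09), *Dut* (0.21 and 0.20), *Ranbp1* (0.29 and 0.08) and *Hells*, a chromatin remodeler (0.23 and 0.14), completed the 10. The r of *Ptma* and *Ranbp1* was lower in TKO2 than in TKO1 by more than that of the others.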

How the data were processed

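Single cells of 2 TKO tumors were captured with the 10x Genomics Chromium system, 1 library per tumor. The authors deposited raw UMI counts per gene and barcode. The submitters' processing notes name Cell Ranger, Seurat and mm10, and the annotation release is not given in the sources used here. Depth was 5285038 and 8291430 UMIs. The members and all gene lists were chosen with earlier results of these data known.

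Cells with more than 500 detected genes and under 10% mitochondrial UMIs were retained. Each tumor was clustered in Seurat 5.3.0 (1000 variable genes without the replication and mitotic lists, 10 principal components, resolution 0.8). A cluster was named from at least 3 fixed markers at least 4-fold higher than in other cells (neuroendocrine-like, 2-fold over macrophage-like). Neuroendocrine markers took precedence over ciliated cell markers, so a cluster with both was called neuroendocrine-like. Scrublet (scanpy 1.11.5) called 0 doublets, so the alternative left out its highest scores (109 and 127 cells).

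UMIs were summed over neuroendocrine-like cells and scaled to CPM, with Poisson intervals and exact conditional intervals of ratios (scipy 1.17.1). A gene needed 10 UMIs over both tumors, and a gene at 0 was set to 3 counts in counts of all genes. For shares of cells, 1000 UMIs were drawn from each cell (seed 1), with 95% Clopper-Pearson intervals. Scripts were tested on simulated data. edgeR 4.0.16 gave TMM factors only. Positions are from GENCODE M21 and promoters from RefSeq on GRCm38.p6. Named genes were all members, with full values for the 2 highest per role and for each member at least 2-fold apart, *Ube2c*, *Ccnb1*, the 5 highest other replication genes and those at least 2-fold apart, and the 10 genes most alike. *Ccne1*, *Gm20388* and the genes leading clusters were named after their values were seen. Values of some single genes of the lists are not reported here.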

Additional observations from a re-analysis of the deposited data

Results flagged for a closer look

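The replication genes as a sum had a ratio of 1.19 in TKO1 and 0.97 (0.94 to 1.01) in TKO2 between cells with *Ube2c* or *Ccnb1* and cells with none. The TKO2 interval holds 1. Its ratio was above 1 in 4 alternatives, but 0.957 (0.922 to 0.994) with the highest doublet scores left out. The direction in TKO2 thus depended on the setting, and no opposite direction was established. The correlation of the summed replication genes with the mitotic list was 0.0878 in TKO1 and -0.0472 in TKO2, but by rank (Spearman) it was above 0 in both. The difference between the tumors was not tested, since each is 1 library.

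Barcodes that were not retained all had 500 or fewer detected genes. They are outside the main comparisons and held replication UMIs in both libraries. The 1321 such barcodes of TKO1 had 2358 CPM (2247 to 2473) of the 41 genes and the 248 of TKO2 had 2557 CPM (2333 to 2797). Both were below the retained tumor cells of the same library. In TKO1 the level was above that of macrophage-like cells (1356 to 1774). In TKO2 the interval overlapped that of macrophage-like cells (1987 to 2368), whose level depended on the clustering.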

How the results depend on the processing

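No replicate could be left out and no paired analysis was possible because each tumor is 1 library. Of 59 alternative values for 11 results, 32 stayed within the interval or count range. The log2 ratio of the replication genes between tumors was -0.85 with TMM factors, -0.90 with size factors and -0.72 when mitochondrial and ribosomal protein UMIs were left out of the totals. Without subtraction of the median, 9 genes were at least 2-fold higher in TKO2 and 1 in TKO1. Shares followed depth. At 500, 2000 and all UMIs per cell, 67.3%, 98.1% and 88.3% of TKO1 cells had a replication UMI and 22.0%, 79.9% and 54.5% had 3, against 82.5%, 99.5% and 98.2%, and 36.0%, 93.1% and 87.3%, of TKO2 cells. The TKO2 share of 95.5% was at the high end of the draws. It was 94.5% with more than 200 genes and, in settings chosen after seeing the data, 94.5% with a second seed and 94.9% as the mean over all draws. With 2 UMIs of the mitotic list as the rule, the ratio in mitotic cells was 1.44 in TKO1 and 1.18 in TKO2. With *Ube2c* or *Ccnb1* as the rule, the TKO2 ratio was 1.02 at 2000 UMIs, 1.04 unthinned and 1.04 at middle depths. It was 0.957 (0.922 to 0.994) with the highest doublet scores left out and 0.966 with a second seed. The correlation with the mitotic list was 0.165 (Spearman) in TKO1, and in TKO2 -0.0887 at 2000 UMIs and 0.0464 (Spearman), a change of sign. The causes were not tested. Genes with few UMIs, such as *Mcm10* and *Orc1* in TKO1, are limited by depth.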
